A study of Homo sapiens with 10 samples.

Results

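In droplet single-cell RNA sequencing (scRNA-Seq) a barcode marks the droplet an RNA came from, and a unique molecular identifier (UMI) marks the RNA molecule itself. The barcodes described here come from untreated HCT-116, a human colon cancer cell line in long use, and were chosen by the share of their UMIs that came from genes of the mitochondrial genome (MT genes). Among barcodes with at least 10000 and fewer than 150000 UMIs, those with 8% or more MT UMIs were called high and all others control. This gave 737 high barcodes, 550 of 3992 deep barcodes in untreated library 1 (13.8%, 95% exact binomial interval 12.7 to 14.9) and 187 of 2121 in library 2 (8.82%, interval 7.64 to 10.1), out of 23229 barcodes in the 4 single-cell libraries of the series. The control group had 3442 and 1934 barcodes. The intervals cover counting error only.

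The study asked how HCT-116 cells that survive doxorubicin (DOX) differ from untreated cells. It has 2 untreated libraries and 2 libraries of cells that received 200 nM DOX for 24 h and then recovered for 6 d, and 6 bulk samples that were not used here. HCT-116 stands for a single cell line, and the labels do not say whether the libraries of a condition came from separate cultures, so p-values measure only the spread between these libraries. The untreated libraries held 317489299 and 209547139 UMIs, and the DOX libraries 159897846 and 170495465. Of the barcodes in the 2 untreated libraries, 5 were shared, none of them high. The epithelial genes EPCAM, KRT8, KRT18, KRT19 and CDH1 were all detected in every sum of high barcodes, EPCAM at 356 and 322 CPM, here UMIs of a gene per 1000000 non-MT UMIs of a sum. Against control, 4 of these 5 genes were lower and 1 higher with the factors explained below (median log2 fold change −0.51). By the total of non-MT UMIs 2 were lower and 1 higher (median −0.13). With only barcodes of 15% MT or more as high, 4 were lower and 1 higher with either scaling (medians −2.93 and −1.75). Markers of blood, fibroblast and endothelial cells made up 103 and 35 UMIs of the high sums and 873 and 577 UMIs of the control sums, a range of 0.000445 to 0.000535% against 0.000371 to 0.000376%. Of these 10 markers, COL1A2 and LUM were at 0 in all 4 sums, and none of the 3 that could be tested passed the test with the TMM factors explained below, while 1 was higher by the total of non-MT UMIs.

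The mitochondrial genome encodes core subunits of the respiratory chain and of ATP synthase, while the other subunits are encoded in the nucleus, translated by cytosolic ribosomes and imported. Mitochondrial transcripts stay inside the organelle, and most cytosolic messenger RNAs are free or bound to ribosomes, whereas some long noncoding RNAs remain in the nucleus. The share of MT UMIs is widely used as a quality measure of single cells.

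The share of MT UMIs fixed the groups, so the following values are a description. The median number of MT UMIs per barcode was 4193.5 in high and 3502.5 in control barcodes of library 1, and 5060 and 3769.5 in library 2. The high medians were 1.20 and 1.34 times those of control. The median number of UMIs from all other genes was 27943.5 in high and 65639 in control barcodes of library 1, and 37559 and 73626 in library 2, which is 0.426 and 0.510 times control. By these medians the high group of each untreated library differed from control more in its non-MT UMIs than in its MT UMIs. This did not hold for every class of high barcodes. In library 2 the 88 barcodes with 8 to 10% MT had medians of 5444 MT and 56016 non-MT UMIs. Relative to control, their MT UMIs differed more. In library 1 the 273 barcodes with 8 to 10% MT had medians of 4262 and 43451, and their non-MT UMIs differed more. In the DOX libraries 620 of 1928 and 681 of 1691 deep barcodes were high. There the ratios of all high to control medians were 2.51 and 2.11 for MT UMIs and 0.864 and 0.821 for the rest.

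**Figure D1:**
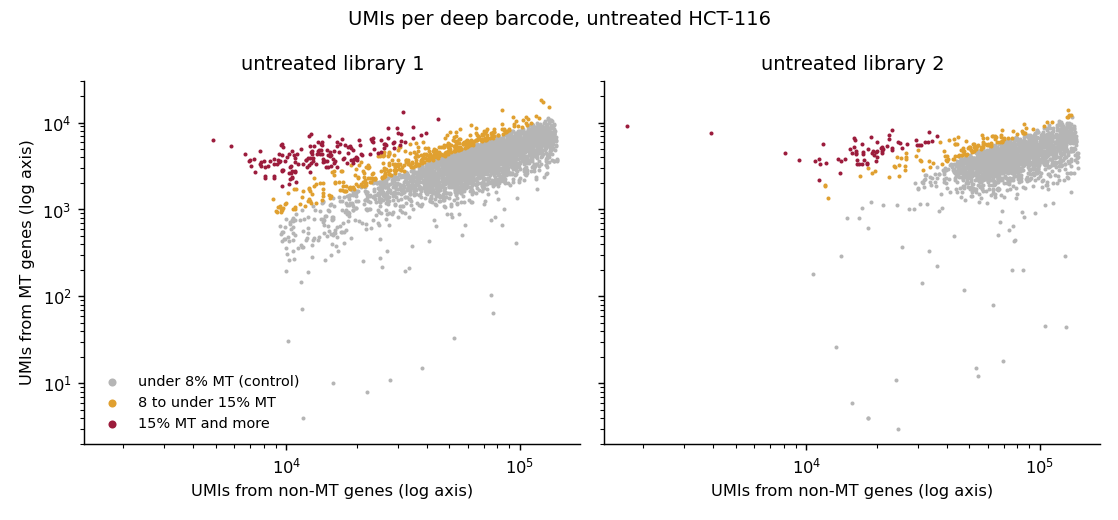
UMIs from MT genes (vertical, log axis) against UMIs from all other genes (horizontal, log axis), 1 point per deep barcode, for both untreated libraries. Barcodes with 15% MT or more lie at a median of 13921 and 18663 non-MT UMIs, while the medians of their MT UMIs, 4201 and 4776, lie within the range of control barcodes.

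The make-up of the MT UMIs differed little between the groups. MT-CO3, a subunit of cytochrome c oxidase, was the most abundant with 27.0 and 26.8% of the MT UMIs of high barcodes and 25.9 and 25.3% in control. MT-CO1 of the same complex held 12.9 and 13.2% in high and 12.5 and 12.6% in control barcodes. MT-ND1, a complex I subunit, held 3.07 and 3.15% in high and 3.30 and 3.47% in control barcodes. Over the 13 MT genes the ratio of high to control ran from 0.769 and 0.792 for MT-ND6, the protein-coding gene on the other strand of the mitochondrial genome, to 1.09 and 1.13 for MT-ATP6, a subunit of ATP synthase.

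The limit of 8% cut through a continuous distribution. Just below it, at 7 to 8%, 384 and 130 barcodes had medians of 56178.5 and 63420.5 non-MT UMIs, and just above it, at 8 to 9%, 178 and 59 barcodes had medians of 44412 and 59524. Of the high barcodes, 273 and 88 had 8 to 10% MT, 116 and 33 had 10 to 15%, and 161 and 66 had 15% or more. The last class was set apart after the distribution of MT shares had been seen.

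To ask which other genes differed, non-MT UMIs were summed per library and group, and the 4 sums were compared with edgeR's quasi-likelihood test, paired by library. Of 19668 genes tested, 4064 were higher (20.7%) and 5420 lower (27.6%) in high barcodes at an adjusted p under 0.05, of which 1832 (9.31%) and 2102 (10.7%) by at least 1.5-fold. These values use TMM factors, which lower every log2 fold change by a mean of 0.384 relative to scaling by the total of non-MT UMIs. With the total as the scale, 9163 genes were higher (46.6%) and 2191 lower (11.1%). All 4064 genes called higher and 2191 of the genes called lower were called the same way with both scalings. Going from TMM factors to the total raises every log2 fold change, so a gene higher with TMM factors could not turn lower. This agreement in direction is therefore no separate support. With control barcodes matched on their number of non-MT UMIs, 5723 of 15357 genes tested differed, 2470 higher and 3253 lower, and by the total 5698 were higher and 1004 lower. The match was incomplete in library 2, at medians of 37559 non-MT UMIs in high and 45327 in matched control barcodes (27943.5 and 28806 in library 1). The matched control sums were also smaller, at 20181106 and 9288850 non-MT UMIs, and the part of this in the lower count was not tested. The median log2 fold change of all genes was 0.03 with TMM and 0.42 by the total. With 2 pairs an exact permutation test of a single gene cannot give a p below 0.5, so each p-value below rests on the spread edgeR pooled over genes.

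Among genes with a mean of at least 20 CPM, the largest rise was that of DDIT4, an inhibitor of mTORC1 signalling that is induced by low oxygen and other stress (chromosome 10, 74033678 to 74035794 on hg19, plus strand). It stood at 98.7 and 91.6 CPM in the high sums and 22.8 and 20.9 in control. The log2 fold change was 1.74 (SE 0.0705, edgeR adjusted p = 1.21e-127, or 1.51e-09 where all 4 libraries shared 1 fit). NEAT1, the long noncoding RNA on which paraspeckles are built, was at 493 and 536 CPM in high and 161 and 167 in control barcodes, a log2 fold change of 1.26. BNIP3L, a mitophagy receptor of the outer mitochondrial membrane, was at 71.9 and 79.6 against 24.6 and 24.6. GDF15, a secreted stress-induced cytokine, was at 133 and 103 against 44.1 and 35.2. For each of these genes both high sums lay above both control sums.

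The other large rises were those of MAML3 (log2 fold change 1.28), a coactivator of Notch signalling, PFKFB4 (1.28), a regulator of glycolysis, NDRG1 (1.16), ACSS2 (1.10), which makes acetyl-CoA from acetate, RGS6 (1.08) and PDK1 (1.00), the kinase that inhibits pyruvate dehydrogenase. The 10 largest falls lay between −1.15 and −1.07. NCL, the nucleolar protein nucleolin, was at 1118 and 1256 CPM in high and 1872 and 2000 in control barcodes (log2 fold change −1.09, edgeR adjusted p = 2.06e-72). GRWD1 (−1.15) and RRS1 (−1.12) act in ribosome assembly. HNRNPAB (−1.14) is an RNA-binding protein, and HIST1H1C (−1.11) and HIST1H1E (−1.08) are linker histones. The other falls were HIST1H2AH, CCDC86, TMEM126A and BRMS1. All 20 genes kept their direction by the total of non-MT UMIs, as a mean shift of 0.384 could not turn changes of this size.

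**Figure D2:**
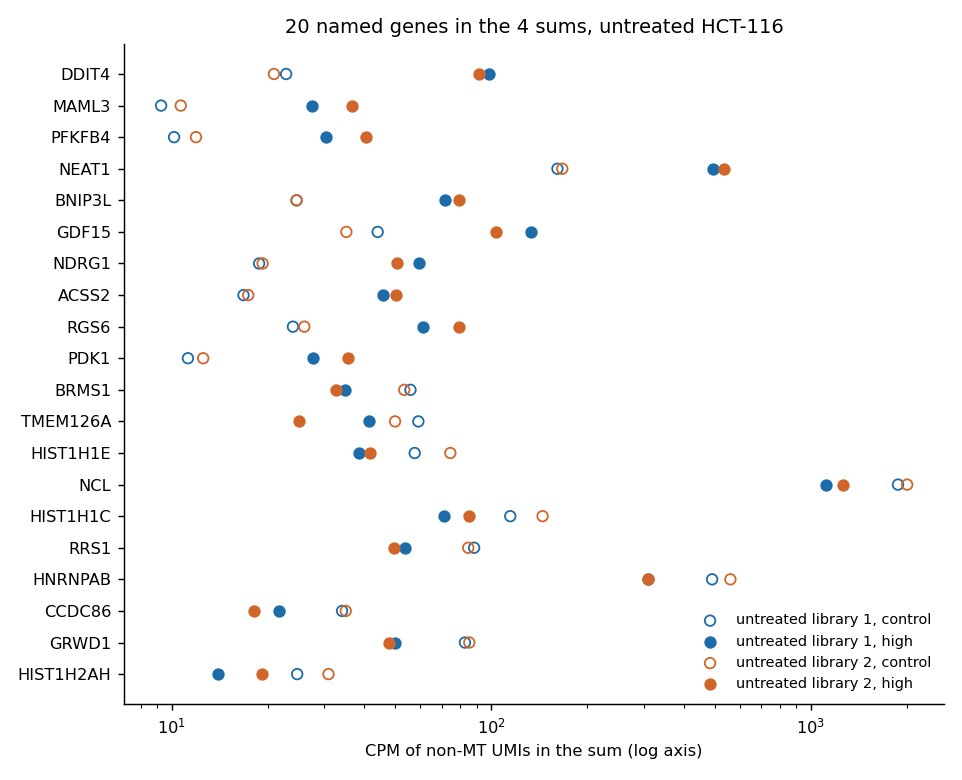
The 10 largest rises and 10 largest falls in the 4 untreated sums, in CPM of non-MT UMIs (log axis). Filled circles are sums of high barcodes and open circles sums of control barcodes, 1 colour per library. The filled and open circles do not overlap for any of the 20 genes, which were chosen for this difference.

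Genes of the hypoxia response rose as a group. Of 18 members tested, 16 were higher and none lower, against 20.7% of all genes higher, with a median log2 fold change of 0.70 (0.62 in library 1 and 0.71 in library 2) beside 0.03 for all genes. By the total of non-MT UMIs the median was 1.08 and all 18 were higher. With only barcodes of 8 to 10% MT as high the median was 1.07 (1.15 by the total). With only those of 15% MT or more it was −0.52 (0.65 by the total), beside −0.05 (1.12 by the total) for all genes. ANGPTL4, a secreted inhibitor of lipoprotein lipase, was at 24.8 and 20.3 CPM in high and 5.09 and 5.10 in control barcodes. P4HA1, a collagen hydroxylase, was at 116 and 148 against 53.6 and 57.3. VEGFA (0.05) and PFKFB3 (−0.03) did not pass the test with TMM factors.

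The genes of cholesterol synthesis and uptake were split, with 14 higher and 4 lower of 24 and a median of 0.27. By the total 19 were higher and 2 lower. The median was 0.58 with only barcodes of 8 to 10% MT as high, and −1.08, or 0.10 by the total, with only those of 15% MT or more. INSIG1, which holds back the processing of SREBP, was at 56.5 and 58.8 CPM in high and 22.5 and 21.8 in control barcodes. PMVK (−0.74), EBP (−0.57) and NSDHL (−0.44), enzymes of the pathway, were lower with TMM factors, and NSDHL (−0.05) did not pass the test by the total.

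Nuclear genes for mitochondrial proteins were lower, against 27.6% of all genes lower. All 37 nuclear complex I genes tested were lower (median −0.61), as were all 25 of complexes II to IV (median −0.61) and all 16 of ATP synthase (median −0.69). By the total of non-MT UMIs 30, 18 and 16 of these remained lower, with medians of −0.23, −0.23 and −0.31. The falls were unequal within the high group. With only barcodes of 8 to 10% MT as high these 3 medians were −0.10, −0.08 and −0.14, and with only those of 15% MT or more −3.12, −3.43 and −3.57 (−1.95, −2.24 and −2.39 by the total). CYCS, cytochrome c, was at 413 and 339 CPM in high and 575 and 529 in control barcodes. Of 73 mitochondrial ribosome genes, 68 were lower and none higher (median −0.76), and by the total 61 were lower and 2 higher (median −0.38). The MT genes of the same complexes set the groups and cannot be compared here.

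All 79 cytosolic ribosomal protein genes were lower with TMM factors (median −0.55), and 54 by the total (median −0.17). Of 16 heat shock genes 15 were lower (median −0.77, or −0.39 by the total), among them HSPA8, a constitutive HSP70 chaperone, at 712 and 701 CPM in high and 1038 and 1035 in control barcodes. Of 41 S phase genes 38 were lower and 1 higher (median −0.60), and of 54 genes of G2 and mitosis 49 were lower and none higher (median −0.47). By the total these medians were −0.22 and −0.09, with 24 and 22 genes lower and 4 and 9 higher. From 15% MT on, 33 and 42 of these genes were lower and 3 and 1 higher. By the total, 11 and 18 were lower there and 16 and 28 higher (medians −0.10 and 0.31). Of all genes there, 14.9% were lower and 52.5% higher by the total (median 1.12). For all high barcodes together, 20.7% of all genes were higher and 27.6% lower with TMM factors, and 46.6% and 11.1% by the total. All 5 nuclear retained RNAs tested were higher (median 0.54, or 0.93 by the total), among them MALAT1 at 8360 and 9825 CPM against 5199 and 5398.

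Of 30 p53 targets 13 were higher and 10 lower, with a median of 0.08 with TMM factors, and by the total 21 were higher and 1 lower with a median of 0.46. Of 22 U-ISGF3 genes of the study, a set of interferon-stimulated genes, 5 were higher and 4 lower with TMM factors, and 8 higher and none lower by the total. The study chose to examine that list in these samples, and the count is not independent evidence of a direction. Glycolysis genes had 5 higher and 11 lower of 18, at a median of −0.29 that turned to 0.09 by the total, where 8 were higher and 2 lower. Of all genes, 20.7% were higher and 27.6% lower with TMM factors (median 0.03), and 46.6% and 11.1% by the total (median 0.42). The U-ISGF3 and glycolysis genes were thus not called higher more often than all genes by the total.

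The high barcodes were not uniform. Cytosolic ribosomal proteins made up under 10% of the non-MT UMIs in 177 of 550 high barcodes of library 1 (32.2%, exact interval 28.3 to 36.3) and 87 of 187 of library 2 (46.5%, interval 39.2 to 53.9), against 9 of 3442 and 7 of 1934 control barcodes. The limit of 10% was chosen after the values were seen. At 8 to 10% MT such barcodes numbered 4 of 273 and 2 of 88, at 10 to 15% MT 22 of 116 and 20 of 33, and from 15% MT on 151 of 161 and 65 of 66. The median share of ribosomal proteins was 2.21 and 1.44% from 15% MT on, 19.9 and 21.4% at 8 to 10% MT and 19.2 and 19.3% in control barcodes.

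**Figure D3:**
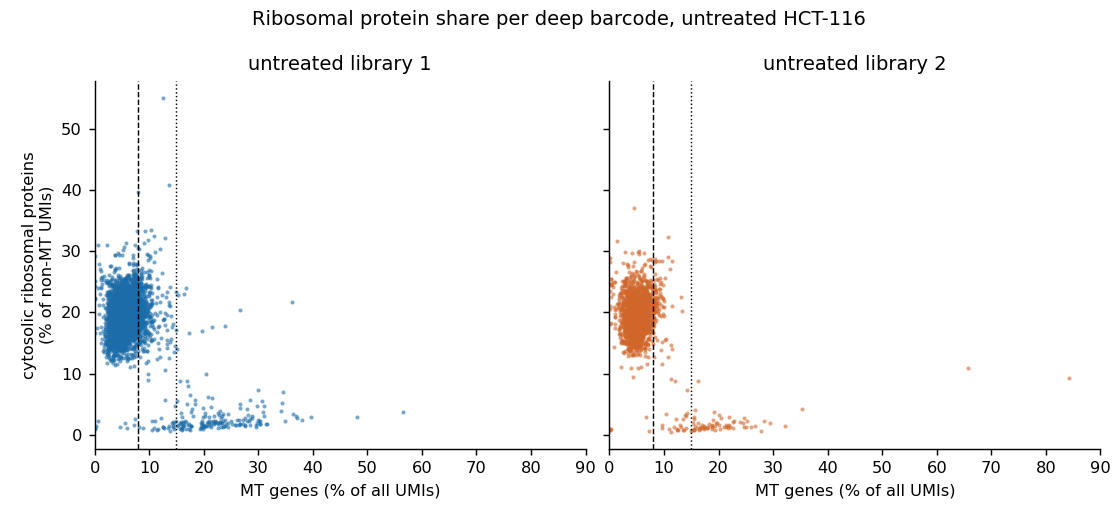
Cytosolic ribosomal proteins as a percentage of non-MT UMIs (vertical) against MT genes as a percentage of all UMIs (horizontal), 1 point per deep untreated barcode. The dashed line marks 8% MT and the dotted line 15% MT, and 151 of 161 and 65 of 66 barcodes right of the dotted line lie under 10% on the vertical axis.

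Counted per barcode rather than as a share, the groups of RNA differed widely from 15% MT on. Ribosomal protein UMIs averaged 572.8 and 326 per barcode, which is 0.0431 and 0.0214 times control, and ATP synthase UMIs 26.1 and 19.5, which is 0.0565 and 0.0373 times control. Nuclear retained RNAs averaged 348.5 and 461.6 UMIs per barcode, 0.923 and 1.01 times control, with a share of non-MT UMIs 3.98 and 4.14 times that of control. Most of these UMIs came from MALAT1, at 20409 and 22348 CPM there. NEAT1 was at 813 and 613, FTX at 558 and 636, TUG1 at 89.2 and 85.0 and KCNQ1OT1 at 75.5 and 81.9. The list value is therefore largely that of 1 gene. RNA annotated as nuclear copies of mitochondrial sequence averaged 28.0 and 36.9 UMIs per barcode, 1.87 and 1.98 times control. These copies are near-identical to mitochondrial ribosomal RNA, so reads of either could be counted for the other.

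A direct comparison of barcodes with 15% MT or more with those at 8 to 10%, paired by library and added after the data were seen, tested 13427 genes with edgeR. With TMM factors 30% were higher and 37% lower, and by the total 58.7% and 19.3%. All 79 ribosomal protein genes were lower with both scalings, at medians of −4.01 with TMM and −3.12 by the total. All 16 nuclear ATP synthase genes were lower too (−3.28 and −2.39). Of 17 hypoxia genes 14 were lower and 1 higher (median −1.17), and by the total 7 were lower and 3 higher (median −0.28). DDIT4 was lower by both, with a log2 fold change of −3.54 (edgeR adjusted p = 7.52e-47) and, by the total, −2.65 (edgeR adjusted p = 4.12e-08). GDF15 (−3.41 and −2.52), BNIP3L (−2.59 and −1.70) and INSIG1 (−2.23 and −1.35) were also lower by both.

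The genes with large rises followed the MT share in different ways. In CPM, DDIT4 went from 13.5 and 11.4 under 4% MT to 33.2 and 38.9 at 6 to 7%, 63.2 and 77.2 at 7 to 8%, 94.4 and 94.5 at 8 to 9% and 120 and 185 at 9 to 10%. At 15% and more it was at 18.4 and 15.6, and with only those barcodes as high its log2 fold change against control was −1.52, or −0.35 by the total, which did not pass the test (edgeR adjusted p = 0.102). The control group thus already held barcodes with raised DDIT4, and the 8% limit did not separate them. PFKFB4 went from 6.31 and 7.73 under 4% to 30.5 and 44.1 at 9 to 10%, and stood at 34.4 and 44.5 at 15% and more. NCL went from 2122 and 2103 under 4% to 1113 and 1366 at 9 to 10% and 833 and 647 at 15% and more.

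As a summed list, the hypoxia genes went from 428 and 420 CPM under 4% MT to 936 and 1161 at 9 to 10%, and stood at 800 and 756 at 15% and more. Cytosolic ribosomal proteins made up 19.0 and 19.4% of non-MT UMIs under 4% MT, 20.8 and 20.8% at 9 to 10%, and 3.61 and 1.68% at 15% and more. Within the 8 to 10% class the hypoxia share of a barcode had a median of 0.0550 and 0.0827% and a 90th percentile of 0.192 and 0.224%, against 0.0426 and 0.0423% and 0.0722 and 0.0719% in control barcodes. With only the 8 to 10% class as high, 1660 genes were higher (8.67%) and 2517 lower (13.1%) of 19143, hypoxia genes had 17 of 18 higher (median 1.07) and ribosomal proteins had 2 higher and 1 lower of 79 (median 0.02). By the total, where 12.6% of all genes were higher and 7.03% lower, 32 ribosomal protein genes were higher and 1 lower there.

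The counts of other groups also differed between the classes. At 8 to 10% MT 11 of 37 complex I genes, 5 of 25 of complexes II to IV and 4 of 16 of ATP synthase were lower than control (2, 1 and 2 by the total), and 19 of 24 cholesterol genes were higher and none lower with either scaling. With only the barcodes of 15% MT or more as high, 21% of 18987 genes were higher and 32.5% lower with TMM factors, and 52.5% and 14.9% by the total. There 37, 24 and 16 of the respiratory genes were lower (33, 22 and 16 by the total). Hypoxia genes had 2 higher and 10 lower of 18 with TMM factors and 10 higher and 2 lower by the total. Cholesterol genes had 3 higher and 19 lower of 24, and 8 higher and 6 lower by the total. For hypoxia and cholesterol genes the sign against control from 15% MT on thus depended on the scaling. The median of all genes there was −0.05 with TMM factors and 1.12 by the total. The hypoxia (−0.52 and 0.65) and cholesterol (−1.08 and 0.10) medians lay below it with either scaling.

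**Figure D4:**
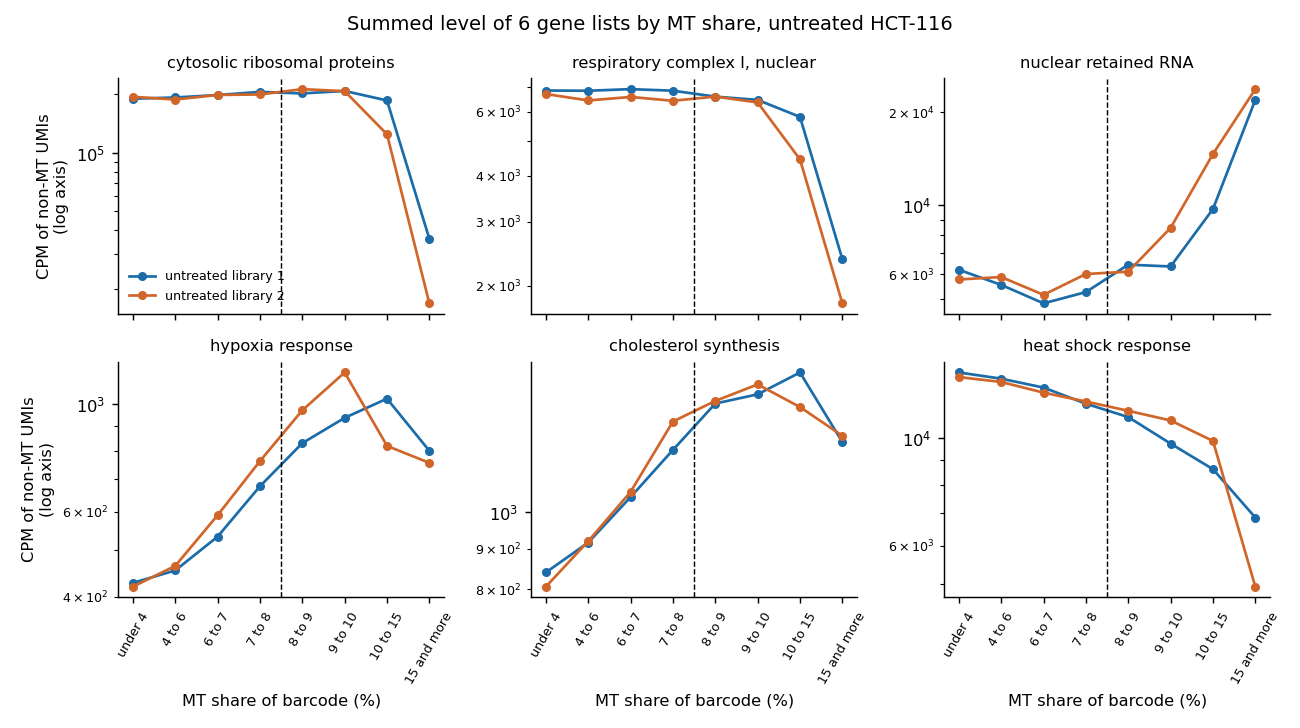
Summed level of 6 gene lists, in CPM of non-MT UMIs (log axes), in untreated barcodes grouped by MT share, 1 line per library. The dashed line marks 8%. Ribosomal proteins and complex I stay near level up to 10% and are lowest at 15% and more. Nuclear retained RNA, mostly MALAT1, is highest at 15% and more. Hypoxia and cholesterol genes are highest at 10 to 15% in library 1 and at 9 to 10% in library 2.

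Gene length was set beside these changes. By the total of non-MT UMIs, the median log2 fold change of high against control barcodes was 0.27 for 2721 genes under 5 kb and 0.74 for 1645 genes over 200 kb. From 15% MT on the medians were 0.32 and 1.90, and at 8 to 10% MT 0.12 and 0.22. Long noncoding RNA genes had a median of 0.80 in high barcodes and protein-coding genes 0.32. Length, noncoding status and level of expression move together across genes, and their separate parts in these values were not tested.

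**Figure D5:**
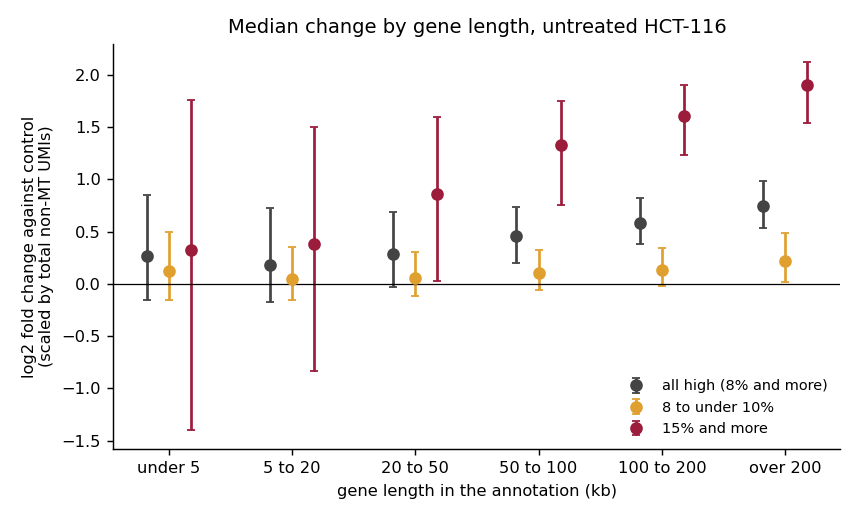
Median log2 fold change against control (scaled by total non-MT UMIs) by gene length in the annotation, for all high untreated barcodes and for the 8 to 10% and 15% and more classes, which share control barcodes. Bars span the 25th to 75th percentile of genes, and the medians at 15% and more run from 0.32 under 5 kb to 1.90 over 200 kb.

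The same contrast in the DOX libraries was set against the untreated one in a fit of 8 sums. The change differed at an adjusted p under 0.05 for 2406 of 21267 genes (11.3%), 1177 (5.53%) with a larger and 1229 (5.78%) with a smaller value in untreated cells. The cholesterol genes differed for 21 of 24, all with the larger value in untreated cells, at a median difference of 0.86. In separate fits of each condition, each with its own TMM factors, their median was 0.27 in untreated and −0.86 in DOX cells. By the total these medians were 0.65 and −0.36. INSIG1 was at 14.6 and 16.3 CPM in high and 24.3 and 28.1 in control DOX barcodes, where both untreated high sums had been above control. Its change differed by 2.12 (SE 0.0884, edgeR adjusted p = 2.29e-08). DDIT4 was at 76.5 and 81.8 in high and 53.7 and 54.9 in control DOX barcodes, a difference of 1.57 between the conditions. Of 54 genes of G2 and mitosis 50 differed, at a median difference of 0.65. Their medians in the separate fits were −0.47 in untreated and −1.22 in DOX cells, or −0.09 and −0.71 by the total. NEAT1 rose in both conditions, and its change differed by 0.03 with an edgeR adjusted p of 0.891.

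The number of these differences, and for some genes their direction, depended on the MT limit and on how depth was handled. They numbered 503 without the library as a block and 456 of 19410 genes tested with control barcodes matched on non-MT UMIs. With every barcode thinned to 5000 non-MT UMIs they numbered 166 of 14321. Thinning left 2745000 and 925000 non-MT UMIs in the untreated high sums, and the part of such smaller sums in these counts was not tested. With matched controls the cholesterol genes differed for 19 of 24 at a median difference of 0.86, the same as without matching (0.86), and the genes of G2 and mitosis for 43 of 54 at 0.77 against 0.65. Hypoxia genes differed for 1 of 18 with matched controls, at a median difference of 0.30 against 0.53. With high barcodes taken from 10% on, 59 genes differed, including 3 cholesterol genes and none of the genes of hypoxia or of G2 and mitosis, at median differences of 0.56, 0.01 and 0.40. With high barcodes from 15% on, 3574 genes differed, 658 with a larger and 2916 with a smaller value in untreated cells. The cholesterol genes then had 5 larger and 1 smaller (median difference 0.11), and the hypoxia genes 1 larger and 6 smaller (−0.44). High barcodes of the DOX libraries lay at higher MT shares, with 164 and 203 of them (26.5 and 29.8%) at 8 to 10% against 49.6 and 47.1% in the untreated libraries, and the part of this in the differences was not tested.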

How the data were processed

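The deposited values are raw UMI counts per gene and barcode, obtained by the authors from alignment to hg19 with Cell Ranger (version 7.2.0 per the file headers, 7.0.0 per the processing notes, which also list CASAVA 1.8.2, SAMtools 1.2 and bedtools 2.25). The annotation release and the counting of intronic reads are not given in the sources used here. For the DOX libraries the authors fixed the number of barcodes kept at 8000 each. No doublets or background RNA were removed here.

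UMIs of 32725 non-MT genes were summed per library and group, so n is 2 libraries. The sums were tested with edgeR 4.0.16 in R 4.3.3 (filterByExpr, TMM factors, library as a block, quasi-likelihood F test, p-values adjusted by Benjamini-Hochberg, called under 0.05). High and control barcodes of a library share that library, which is where the pairing comes from. The fit left 1 residual degree of freedom and an infinite prior, so that all genes took a common spread. DESeq2 1.42.0 was an alternative. CPM are parts of non-MT UMIs. Named genes are the 10 largest rises and falls with adjusted p under 0.05, a mean of at least 20 CPM and the same direction in both libraries, without clone-named genes and nuclear mitochondrial copies, and in each list the 2 members of lowest p. Further list members stand beside their list's counts, and values at MT limits of 15% and 10% for ribosomal proteins were chosen later. The members and the 31 gene lists were chosen with earlier results of these data known. Coordinates come from GENCODE on GRCh37, matched for 31182 of 32738 gene IDs. Scripts used Python 3.11.15 with matplotlib 3.10.9, pandas 2.3.3, scipy 1.17.1 and numpy 2.4.6. The tests were tried on simulated counts first. Unchanged genes made up 8.09% of the calls in the paired fit and 8.20% in the fit of 8 sums. Of simulated 1.5-fold changes, 64.6 and 56% were called. Few genes were changed there, as many up as down, so the simulation does not cover the wide shifts seen in these data. Single values of some list members are not reported here.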

Additional observations from a re-analysis of the deposited data

Results flagged for a closer look

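For 36 named genes the change from control to high barcodes differed between untreated and DOX cells in the fit of 8 sums (edgeR adjusted p under 0.05). Each value is the untreated log2 fold change minus that of DOX cells. Among genes that were higher in high untreated barcodes, it was 1.57 for DDIT4, 0.67 for PFKFB4, 1.24 for BNIP3L, 0.79 for GDF15, 0.58 for NDRG1, 1.01 for ACSS2, 0.55 for PDK1, 1.55 for ALDOC, 1.30 for ANGPTL4, 2.12 for INSIG1 and 0.63 for SREBF2.

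Among genes that were lower in high untreated barcodes, the fall was smaller than in DOX cells by 1.34 for HIST1H2AH, 0.48 for HIST1H1C, 1.13 for HIST1H1E, 0.29 for NDUFAB1, 0.33 for CYCS, 0.25 for UQCR10, 0.42 for ATP5G3, 0.33 for TOMM22, 0.29 for PHB2, 0.31 for LDHB, 0.55 for EIF5A, 0.50 for SRSF3, 0.33 for HNRNPU, 0.36 for SDF2L1, 0.70 for BIRC5, 0.39 for PRDX3, 0.64 for FEN1, 0.68 for GINS2, 0.28 for TUBB4B and 0.75 for CDC20. The value was negative for the other 5 genes, −0.32 for FTX, −0.38 for PMAIP1, −0.32 for DDX58, −0.33 for KRT18 and −0.39 for KRT8.

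Of these 36 genes, 10 differed without the replicate block, 8 with every barcode thinned to 5000 non-MT UMIs and 1, INSIG1, with high barcodes from 10% MT on (log2 difference 1.43, edgeR adjusted p = 0.0331). INSIG1 differed under every alternative run, by 0.973 to 2.27. The direction of many of the other values depended on the MT limit. With high barcodes from 10% MT on, 16 of the 36 had the opposite sign, none of them past the threshold. With high barcodes from 15% MT on, 23 of the 36 differed with TMM factors, 16 of them with the opposite sign to the value above, among them DDIT4 (−0.79), GDF15 (−1.80), NDRG1 (−0.99), ALDOC (−2.17), HIST1H1C (−1.49), NDUFAB1 (−1.28), CYCS (−1.41), UQCR10 (−1.84) and TOMM22 (−1.34).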

How the results depend on the processing

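The number of genes that differed between high and control barcodes, 9484 of 19668, came to 5723 of 15357 with control barcodes matched on non-MT UMIs. With high barcodes of 8 to 10% only (an alternative added later) it was 4177 of 19143, or 3760 without TMM factors. Leaving out 1 library at a time gave 6475 to 9194, with 1774 to 3580 genes higher. In those fits a lone library was assumed to vary like the others, and without untreated library 1 or 2 the genes called higher were 2075 and 1774. DESeq2 called 1908 higher. Without the replicate block 7335 genes were called, all of them shared with the blocked fit.

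The number that differed between conditions, 2406 of 21267, came to 503 without the replicate block. It was 456 of 19410 genes with matched controls and 166 of 14321 with thinned barcodes. High from 10% on gave 59, or 63 with control under 6%, and 8 to 10% only gave 430. High from 15% on gave 3574 (658 larger and 2916 smaller in untreated cells). Of these, 809 were also among the 2406 with the same direction, a count that leaves out genes called in both with opposite directions. Leaving out libraries gave 1150 (without untreated library 1) to 2043, and 1199 without untreated library 2.

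Of 1635 values of 75 named genes under 22 alternatives, 1561 kept direction and side of the threshold, 54 no longer passed, 3 newly passed and 17 changed direction. The limit of under 12000 genes removed no untreated barcode, so its 75 values repeat the main fit and are no evidence of stability. Leaving out nuclear copies of mitochondrial sequence also changed little, at 9483 against 9484 genes called. With high barcodes from 15% on the log2 fold changes were −1.52 for DDIT4 (−0.35 without TMM factors), −1.12 for BNIP3L (0.05), −2.25 for GDF15 (−1.08), −0.78 for NDRG1 (0.39), −3.12 for ALDOC (−1.96) and −0.98 for INSIG1 (0.20), so that without TMM factors BNIP3L, NDRG1 and INSIG1 did not change direction. Without TMM factors PNPT1 turned to 0.0817, and to 0.17 with matched, 0.43 with thinned and 1.15 with 15% barcodes. At 8 to 10% without TMM factors ISG15 was at 0.0792, CA2 at 0.0814, KRT18 at 0.0220 and KRT8 at 0.00752. The causes were not tested. High sums held 19242037 and 7867599 non-MT UMIs and control sums 235471564 and 153289518, so precision is set by the high sums and by 2 libraries.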

Other observations

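Gene groups not described above gave the following values in high against control untreated barcodes, for all high barcodes together. Of 26 genes for SR proteins and hnRNPs, which act in splicing, 25 were lower and none higher in high untreated barcodes, at a median of −0.70 (−0.31 by the total of non-MT UMIs, with 17 lower), against 27.6% of all genes lower. SRSF3 was at 473 and 407 CPM in high and 696 and 654 in control barcodes. Of 26 genes of oxidative stress defence 24 were lower and none higher (median −0.63, or −0.24 by the total with 19 lower), among them PRDX3, the mitochondrial peroxiredoxin, at 297 and 241 against 396 and 343. Of 18 genes for caspases and the apoptosome 10 were lower and 1 higher, and their median of −0.33 turned to 0.06 by the total.

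Mitophagy genes were split, with 4 higher and 6 lower of 13 (median −0.13, or 0.25 by the total with 6 higher and 2 lower). Of all genes, 20.7% were higher and 27.6% lower with TMM factors, and 46.6% and 11.1% by the total. The mitophagy counts by the total were near these shares, and the mitophagy median lay below that of all genes (0.42). BNIP3, a relative of BNIP3L on the outer mitochondrial membrane, was at 67.8 and 74.4 CPM in high and 36.4 and 36.2 in control barcodes. PHB2, an inner membrane prohibitin, was at 370 and 335 against 489 and 439. Both high sums lay above control for BNIP3 and below it for PHB2.

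Mitochondrial chaperones, proteases and import genes had 28 lower and 1 higher of 29 (median −0.68, or −0.30 by the total with 20 lower and 2 higher). Genes of mitochondrial transcription and RNA handling had 24 lower and 3 higher of 31 (by the total 14 and 8), citric acid cycle genes 13 lower and 1 higher of 17 (by the total 7 and 4), and translation factors 24 lower and none higher of 25 (by the total 13 and 1). For the integrated stress response the median was −0.31 with TMM factors and 0.08 by the total, for immediate early genes −0.35 and 0.04, for the BCL2 family −0.27 and 0.11, for mitochondrial RNA sensing −0.10 and 0.29, and for colon epithelial differentiation −0.14 and 0.25, so that the sign of these 5 medians depended on the scaling. All 5 lay below the median of all genes with either scaling (0.03 with TMM factors and 0.42 by the total). Endoplasmic reticulum chaperones had 14 lower and 1 higher of 17 (median −0.40), and 6 lower and 4 higher by the total (median −0.02).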
